A study of Mus musculus with 6 samples.

Results

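The genes described here encode the R-spondins Rspo1, Rspo2, Rspo3 and Rspo4, the receptors Lgr4, Lgr5 and Lgr6 that bind them, and the membrane ligases Rnf43 and Znrf3 that the bound receptors take from the cell surface. They were chosen as a family, by symbol, as probe sets annotated to exactly 1 gene. All 9 genes were on the array, with 15 such probe sets, out of 18193 genes and 34945 single-gene probe sets in the series. Each gene was read from its brightest probe set, with the others as a check. The samples came from wild-type FVB/N mice at embryonic day 13 (Theiler stage 21), whose bladder neck and urethra were parted with trypsin and a needle into epithelium (arrays 1, 2 and 5, called urothelium in the sample titles) and mesenchyme (arrays 1, 2 and 3). By the labels no sample was a pool and the sex of the embryos was not known, and their texts differ on whether the cut lay above, below or at the ureters. RNA went through 2 rounds of amplification before hybridisation to a mouse whole-genome expression array.

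R-spondins are secreted proteins that strengthen Wnt signalling. Rnf43 and Znrf3 are ubiquitin ligases of the cell membrane that mark Frizzled receptors for removal, and an R-spondin bridging an Lgr receptor to one of the ligases leads to clearance of that ligase, so that more Frizzled remains to receive Wnt. Rnf43 and Znrf3 are themselves induced by Wnt/beta-catenin signalling in several tissues, as is Lgr5, which marks stem cells of the mouse intestine.

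In these arrays the Rspo2 and Rspo3 signals lay higher in mesenchyme and those of Lgr4, Lgr5, Rnf43 and Znrf3 higher in epithelium, with no overlap between the arrays of the layers for these 6 genes. Arrays of the layers did not overlap for 28.8% of all 13717 genes tested. In limma with all 6 arrays, Rnf43 (14.1-fold) and Lgr4 (2.63-fold) passed the threshold of adjusted p 0.05 as higher in epithelium, and Rspo2 (19.0-fold) as higher in mesenchyme. Of the 6 fits that each lack 1 array, Rnf43 passed in 6, Rspo2 in 2 and Lgr4 in 1. Dim second probe sets of Rspo2 and Lgr4 overlapped between the layers. Rspo3, Lgr5 and Znrf3 passed without the array mesenchyme 1, Lgr5 only with dim probe sets left out (adjusted p = 0.0703 in limma with them kept in). Rspo1, whose probe set was dim, passed as higher in mesenchyme without mesenchyme 1 when dim probe sets were kept in (adjusted p = 0.0201). Rspo4 and Lgr6 passed neither with all 6 arrays nor without mesenchyme 1.

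Values are given in normalized signal units, which are probe set signals after quantile normalization of log2(signal + 16). Differences are log2 differences on that scale, epithelium minus mesenchyme, so a negative one is higher in mesenchyme, each with its standard error and limma's p adjusted over all genes tested. Adding 16 makes the differences of dim probe sets smaller than their true size. Each layer had 3 arrays, and the labels do not say that each came from its own embryo, so p-values measure the spread between these samples, which may be technical. In layers of a tissue, fewer cells that express a gene and less RNA of it per cell cannot be told apart. Probes differ in brightness, so a higher signal of one probe set than of another does not show a higher transcript level, and brightness is used only to choose probe sets and to say which are dim.

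Before the members are described, the layers were checked against marker genes. The 12 epithelial markers, among them Cdh1, Epcam and Trp63, had sums of 227212 to 276634 units in epithelium, against 85880 on mesenchyme 1, 16956 on mesenchyme 2 and 3200.2 on mesenchyme 3. The 12 mesenchymal markers, among them Vim, Pdgfra and Twist1, had sums of 35141 to 54498 in epithelium, against 226830 to 282485 in mesenchyme, and none of either list was at 0. The layers thus went with their labels, with mesenchymal transcripts at a lower level in every epithelial array and epithelial transcripts in the mesenchymal ones. Mesenchyme 1 stood apart. Across genes it correlated at 0.784 and 0.755 with mesenchyme 2 and 3, which correlated at 0.981 with each other. On it 5 of 5 liver markers, 3 of 3 pancreatic, 4 of 4 cardiac, 2 of 3 lung and 3 of 4 epidermal markers read more than 4 times the highest value found on any other array. So did, on the same array, 2 of 3 intestinal, 1 of 3 brain, 1 of 3 erythroid and 2 of 12 mesenchymal markers. The liver list summed to 206168 units there, against at most 1101 in epithelium and at most 537 on the other mesenchymal arrays. A separate normalization and fit without that array was therefore made as well. The layers also differed in markers of further cell types. The sum of 5 neuronal markers was 502 to 980 units in epithelium, against 24336 to 34269 in mesenchyme. That of 5 endothelial markers was 501 to 1650 in epithelium, against 10348 to 13747 in mesenchyme, and that of 5 smooth muscle markers 4824 to 10730 in epithelium, against 23039 to 51792 in mesenchyme.

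**Figure D1:**
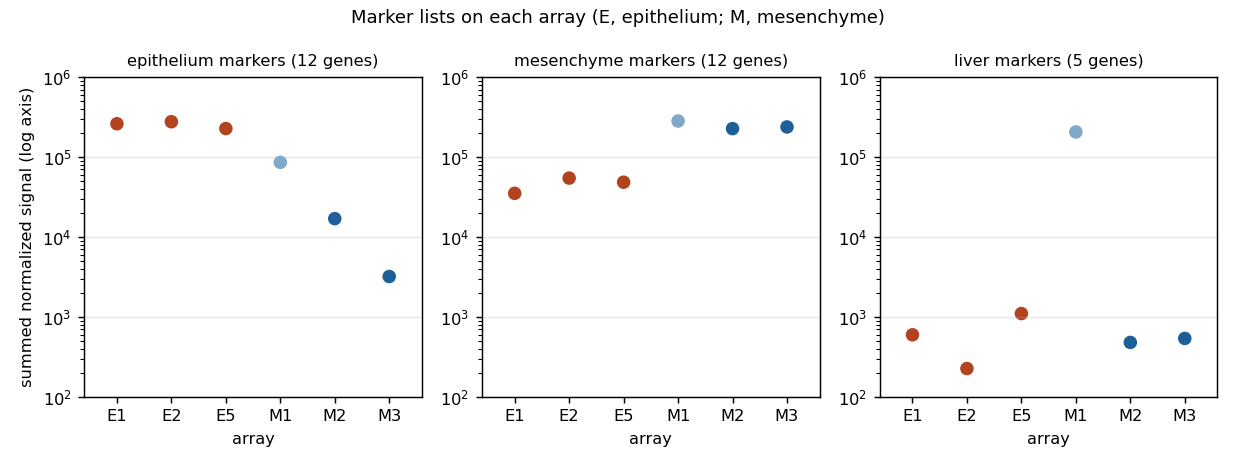
Summed normalized signal (log axis) of the epithelial, mesenchymal and liver marker lists on each array, epithelium (E) left of mesenchyme (M), 1 point per array, with mesenchyme 1 in pale blue. The liver list reached 206168 on mesenchyme 1 and at most 1101 on any other array.

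Of the 9 genes, 7 passed the filter on dim probe sets, and Rspo1 and Rspo4 did not. With all 6 arrays 2 of the 7 were higher in epithelium and 1 in mesenchyme, where 5.98% of all 13717 genes tested passed the threshold in either direction (1.95% higher in epithelium, 4.03% higher in mesenchyme). Without mesenchyme 1, 4 were higher in epithelium and 2 in mesenchyme, against 14.5% of 13587 genes (6.37% higher in epithelium, 8.17% higher in mesenchyme). A gene that is bright in 1 layer only can pass the filter through that layer, as Rnf43 did, so the same count was made over all 9 genes without a filter. There 1 was higher in epithelium (Rnf43) and 1 in mesenchyme (Rspo2) with 6 arrays, against 3.97% of 18193 genes (1.22% and 2.75%). Without mesenchyme 1 it was 3 (Lgr4, Rnf43 and Znrf3) and 3 (Rspo1, Rspo2 and Rspo3), against 10.3% (4.41% and 5.93%). The median difference of the 9, with Rspo1 and Rspo4 from the unfiltered fit, was -0.56 (0.16 without mesenchyme 1), both times the value of Lgr6. Ligands and ligases lay on opposite sides of 0. The median of all genes tested, a set that leaves out dim probe sets, was 0.12 (0.02 without mesenchyme 1).

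**Figure D2:**
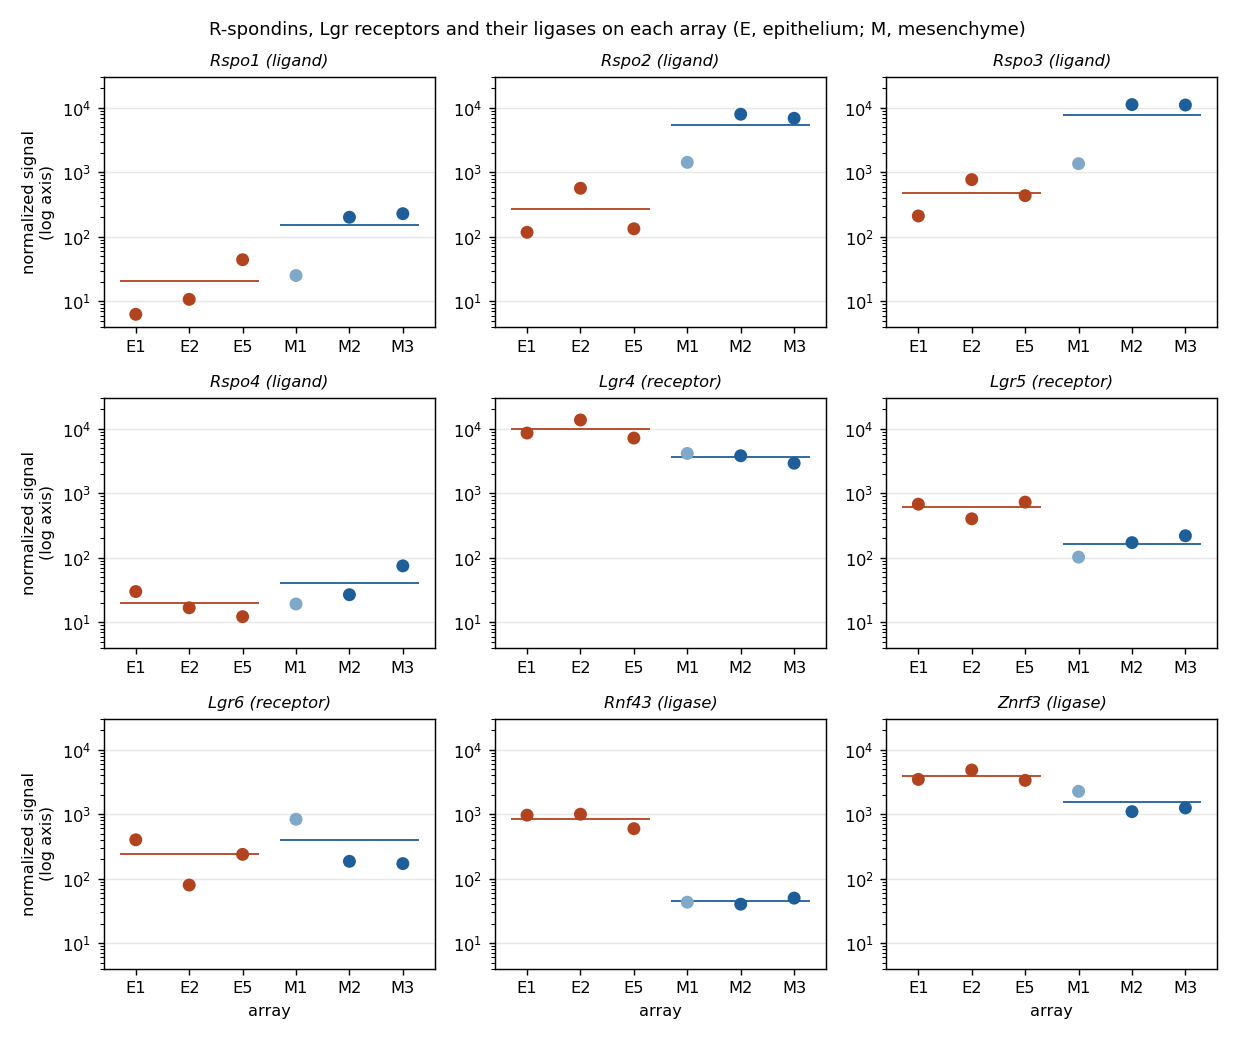
Normalized signal (log axis, the same range in every panel) of the brightest probe set of each gene on each array, epithelium (E, red) left of mesenchyme (M, blue; mesenchyme 1 pale), with lines at the layer means. Rspo2 and Rspo3 lie higher on all 3 mesenchymal arrays, Lgr4, Lgr5, Rnf43 and Znrf3 higher on all 3 epithelial arrays, and levels are to be compared within a panel only.

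Among the ligands, Rspo2 and Rspo3 differed most between the layers. Rspo2, known in mouse for its roles in limb and lung development, read 118, 568 and 134 units on epithelium 1, 2 and 5, against 1431, 7979.8 and 6903 on mesenchyme 1, 2 and 3. The lowest mesenchymal array, mesenchyme 1, was thus still above the highest epithelial one, epithelium 2. Means were 273 ± 256 in epithelium and 5438 ± 3512 in mesenchyme (SD, n = 3 arrays each). The difference was -4.25 ± 0.825 (95% interval -6.18 to -2.31, adjusted p = 0.0288), a 19.0-fold higher signal in mesenchyme, and 98 of the 13717 genes tested had a larger excess in mesenchyme. Without mesenchyme 1 it was -5.13 ± 0.636, or 35.0-fold (adjusted p = 0.00264). The call with 6 arrays ended without epithelium 1 (adjusted p = 0.135), epithelium 5 (0.131), mesenchyme 2 (0.107) or mesenchyme 3 (0.0845), at differences between -3.98 and -3.78.

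Rspo3, an R-spondin needed in the mouse placenta and vasculature, followed the same order of arrays. It read 211, 773 and 436 units on epithelium 1, 2 and 5, against 1365 on mesenchyme 1 and 11255 and 11079 on mesenchyme 2 and 3. Mesenchyme 2 and 3 were close to each other and mesenchyme 1 stood 8.09-fold below their mean, nearer to the epithelial arrays than to them. The difference was -3.69 ± 0.882 (95% interval -5.76 to -1.62), 12.9-fold higher in mesenchyme, and missed the threshold with all 6 arrays (adjusted p = 0.0575). It passed without mesenchyme 1, at -4.78 ± 0.508 or 27.4-fold (adjusted p = 0.00169), and with all 6 arrays when the deposited values were not normalized further (-3.81, adjusted p = 0.0348).

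On epithelium 2, where Rspo2 and Rspo3 had their highest epithelial readings, the mesenchymal marker list also had its highest epithelial sum, 54498 units against 35141 and 48443 on epithelium 1 and 5. Pdgfra, a receptor of mesenchymal cells, read 8820.4 there and 2663 and 3733 on the other epithelial arrays. The markers of the list did not move together. Among epithelial arrays Pdgfra, Col3a1, Twist1, Zeb2 and Lum read highest on epithelium 2. Vim, Pdgfrb, Col1a1, Col1a2, Twist2, Zeb1 and Dcn read highest on epithelium 5. The part of carried-over mesenchyme in the epithelial Rspo2 and Rspo3 signals was not tested, nor was that of neurons, endothelium and smooth muscle, whose markers were higher in mesenchyme, in their mesenchymal signals.

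Rspo1, an R-spondin known for its role in mouse and human ovary development, was dim. It read 6.3, 10.8 and 44.3 units on epithelium 1, 2 and 5, against 25.2, 202 and 229 on mesenchyme 1, 2 and 3. Mesenchyme 2 and 3 lay above all epithelial arrays, and mesenchyme 1 lay among them. The probe set did not pass the filter, whose limit was 96.3 units on the scale of mean log2 values. In the unfiltered comparison the difference was -1.98 ± 0.790 (adjusted p = 0.266), and -2.76 ± 0.534, 6.79-fold higher in mesenchyme, without mesenchyme 1 (adjusted p = 0.0201).

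Rspo4, whose human gene is known from inherited loss of nails, read 29.9, 16.8 and 12.2 units on epithelium 1, 2 and 5, against 19.2, 26.7 and 74.9 on mesenchyme 1, 2 and 3. All of these are low readings on this array, with 15.0% of probe sets lower in mean log2 value, and the layers overlapped. Its difference was -0.56 ± 0.481 (95% interval -1.69 to 0.57, adjusted p = 0.612) with 6 arrays and -0.81 without mesenchyme 1 (adjusted p = 0.419). The deposited table used here has no detection calls, so neither the presence nor the absence of Rspo1 and Rspo4 transcripts can be read from these values.

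Among the receptors, Lgr4, the most widely expressed of the group in mouse tissues, was read in both layers. It had 8579.8, 13688 and 7178 units on epithelium 1, 2 and 5, against 4142, 3816 and 2922 on mesenchyme 1, 2 and 3. Every epithelial array was above every mesenchymal one, and mesenchyme 1 was near mesenchyme 2. Means were 9815 ± 3426 in epithelium and 3627 ± 632 in mesenchyme (SD, n = 3 arrays each). The difference was 1.39 ± 0.315 (95% interval 0.65 to 2.13), 2.63-fold higher in epithelium, just past the threshold (adjusted p = 0.0476), and 1.50 ± 0.317 without mesenchyme 1 (adjusted p = 0.0202). The call ended without epithelium 1 (adjusted p = 0.166), epithelium 2 (0.0900), epithelium 5 (0.0901), mesenchyme 2 (0.151) or mesenchyme 3 (0.152), and in the unfiltered comparison (0.0529).

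Lgr5 read 677, 402 and 729 units on epithelium 1, 2 and 5, against 102, 172 and 219 on mesenchyme 1, 2 and 3. The lowest epithelial array was above the highest mesenchymal array, and mesenchyme 1 was the lowest of all 6. The difference was 1.79 ± 0.446 (95% interval 0.74 to 2.84), 3.46-fold higher in epithelium, and missed the threshold (adjusted p = 0.0661). Without mesenchyme 1 it was smaller, 1.55 ± 0.376 or 2.92-fold, and passed (adjusted p = 0.0352), though not when dim probe sets were kept in (0.0703).

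Lgr6, known as a marker of stem cells in mouse hair follicles and skin, did not separate the layers. It read 400, 79.5 and 238 units on epithelium 1, 2 and 5, against 832 on mesenchyme 1 and 186 and 171 on mesenchyme 2 and 3. The highest reading of this probe set was thus on mesenchyme 1, 4.37-fold above the mean of mesenchyme 2 and 3, and the epithelial arrays lay on both sides of those 2. On that array the epidermal markers Flg, Krt1, Krt10 and Lor summed to 142980 units, against 14041 to 31196 in epithelium, 5800.2 on mesenchyme 2 and 3242 on mesenchyme 3, and their part in the Lgr6 reading was not tested. The second probe set of Lgr6 did not show that excess, with mesenchyme 1 at 1.31-fold the mean of mesenchyme 2 and 3 and its highest reading, 193 units, on epithelium 5. The difference was -0.56 ± 0.786 (95% interval -2.40 to 1.29, adjusted p = 0.731) with 6 arrays and 0.16 ± 0.641 (-1.36 to 1.68, adjusted p = 0.917) without mesenchyme 1. These intervals reach beyond a 2-fold difference in either direction.

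Of the ligases, Rnf43 had the strongest contrast of the family in favour of epithelium. It read 964, 997 and 595 units on epithelium 1, 2 and 5, against 43.1, 40.1 and 49.9 on mesenchyme 1, 2 and 3. The mesenchymal arrays lay close together, mesenchyme 1 included, and the lowest epithelial array was 11.9-fold brighter than the highest mesenchymal one. Means were 852 ± 223 in epithelium and 44.4 ± 5.0 in mesenchyme (SD, n = 3 arrays each), and the deposited signals before normalization were 983, 875 and 564 in epithelium against 67.5, 36.0 and 46.9 in mesenchyme. The difference was 3.81 ± 0.410 (95% interval 2.85 to 4.78, adjusted p = 0.00484), 14.1-fold. Its size depends on the offset because the mesenchymal readings are low, and it was 4.21 with an offset of 1 and 3.04 with 64, past the threshold in both. It was 3.86 ± 0.380 without mesenchyme 1 (adjusted p = 0.00132). Its mesenchymal mean was below the filter's limit, so the gene passed the filter through its epithelial level, and in the unfiltered comparison adjusted p was 0.00799. The call held without any 1 of the 6 arrays (adjusted p 0.00132 to 0.0413).

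Rnf43 stayed low on the mesenchymal array with the highest sum of epithelial markers. The epithelial marker list on mesenchyme 1 reached 85880 units, against 16956 and 3200.2 on mesenchyme 2 and 3, and Rnf43 read 43.1 on mesenchyme 1 and 40.1 and 49.9 on the other pair. Within the list, Cldn6 (127 against 247) and Grhl2 (565 against 675) were lower on mesenchyme 1 than on mesenchyme 2, and the other markers higher. Mesenchyme 1 also carried markers of other organs, whose part in its epithelial sum was not tested, so that sum is not a measure of carried-over epithelium of this tissue. Lgr5 was lowest on mesenchyme 1. Lgr4 and Znrf3 were 1.24-fold and 1.92-fold above the mean of mesenchyme 2 and 3 on that array, and the part of epithelial transcripts in these readings was not tested.

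Znrf3 read 3453, 4826 and 3335 units on epithelium 1, 2 and 5, against 2256, 1093 and 1248 on mesenchyme 1, 2 and 3. The layers did not overlap, and mesenchyme 1 lay between mesenchyme 2 and 3 and the epithelial arrays. The difference was 1.38 ± 0.369 (95% interval 0.52 to 2.25), 2.60-fold higher in epithelium, and missed the threshold (adjusted p = 0.0803). Without mesenchyme 1 it was 1.73 ± 0.272, 3.32-fold, and passed (adjusted p = 0.00630).

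**Figure D3:**
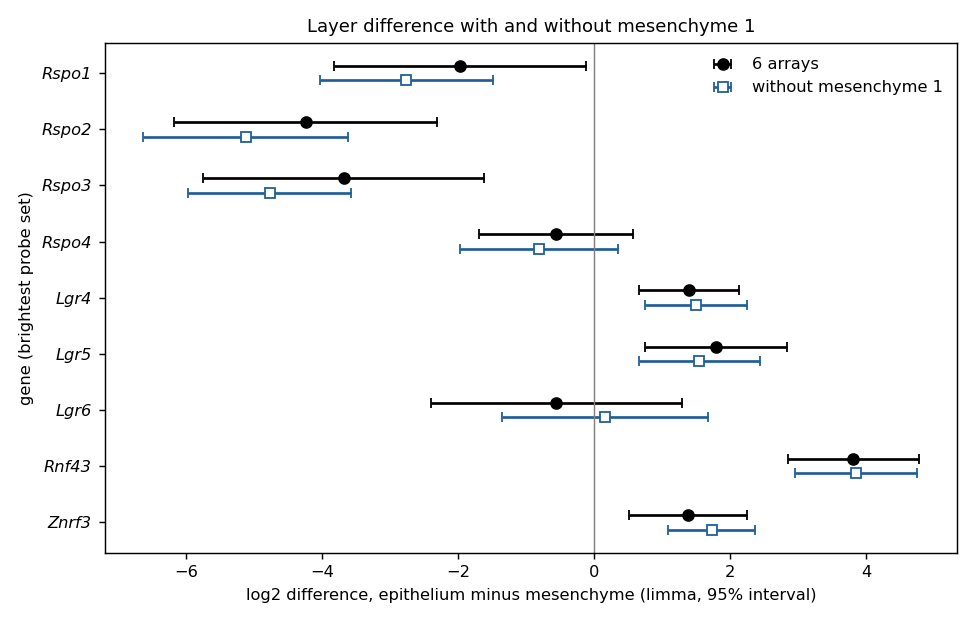
Log2 difference between the layers (epithelium minus mesenchyme) of the 9 genes with 95% intervals from limma, with all 6 arrays (black circles) and without mesenchyme 1 (blue squares). Rspo2 lies at -4.25 and Rnf43 at 3.81 with all 6 arrays, and the interval of Lgr6 spans 0 in both.

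The promoters of Rnf43 and Lgr4 are shown because these were the 2 genes of the family past the threshold in favour of epithelium with all 6 arrays. Both windows run from 250 bases before to 50 bases after a RefSeq start site on the plus strand of GRCm38.p6, at chr11:87662837-87663136 for Rnf43 and chr2:109917397-109917696 for Lgr4. Sequences are written 5′ to 3′, with CCAAT boxes in capitals.
Rnf43: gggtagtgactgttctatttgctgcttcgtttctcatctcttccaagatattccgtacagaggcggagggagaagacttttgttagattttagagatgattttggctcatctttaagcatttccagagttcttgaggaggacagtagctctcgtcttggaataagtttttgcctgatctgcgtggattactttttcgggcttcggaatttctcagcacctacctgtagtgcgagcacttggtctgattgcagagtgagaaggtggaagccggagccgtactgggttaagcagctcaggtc
Lgr4: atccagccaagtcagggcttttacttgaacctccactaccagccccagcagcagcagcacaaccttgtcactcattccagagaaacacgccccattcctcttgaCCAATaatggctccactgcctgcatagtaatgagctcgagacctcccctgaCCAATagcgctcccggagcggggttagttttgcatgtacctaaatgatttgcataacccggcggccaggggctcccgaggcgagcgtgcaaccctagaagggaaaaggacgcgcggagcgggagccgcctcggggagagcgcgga
The Lgr4 window holds 2 CCAAT boxes, which start 146 and 95 bases before the start site, and the Rnf43 window none. CCAAT on either strand is found in 37.4% of the 32851 RefSeq promoter windows of this length. Of the 9 genes, 5 matched an entry (Rspo1, Rspo4, Lgr4, Lgr6 and Rnf43), with 6 windows in all, since Rnf43 has a second start at chr11:87699647-87699946. None of the 6 held the TCF/LEF letters CTTTGAA or CTTTGAT on either strand, which 8.65% of all windows hold, nor the forkhead letters TGTTTAC or TGTTTGC (8.48%). The windows differ in base composition, with 46.7% G and C and 10 CpG in the first Rnf43 window, 58.3% and 18 in that of Lgr4, 69% and 29 in that of Rspo1 and 71% and 31 in that of Rspo4, against medians of 52.7% and 7.

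Second probe sets were present for 6 of the genes, and those of Rspo3 and Znrf3 also read differently in the layers, that of Rspo3 on mesenchyme 2 and 3 but not on mesenchyme 1. For Rspo3 it read 125, 78.6 and 102 units on epithelium 1, 2 and 5, against 65.3, 643 and 614 on mesenchyme 1, 2 and 3. Mesenchyme 2 and 3 were again above all epithelial arrays and mesenchyme 1 was below them, with a difference of -1.47 (adjusted p = 0.504) or -2.50 without mesenchyme 1 (adjusted p = 0.0180) over all 34945 single-gene probe sets. For Znrf3 the second probe set read 328, 373 and 159 units on epithelium 1, 2 and 5, against 18.3, 145 and 79.2 on mesenchyme 1, 2 and 3. Its layers did not overlap, with a difference of 1.83 (adjusted p = 0.290), or 1.21 without mesenchyme 1 (adjusted p = 0.322), although mesenchyme 1 was here the lowest array and not the highest of its layer.

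The second probe sets of Rspo2 (difference -0.04), Lgr4 (0.16), Lgr5 (0.15) and Lgr6 (0.10) overlapped between the layers and passed in neither comparison. Those of Rspo2, Lgr4 and Lgr5 were dim, below the filter's limit in mean log2 value, while that of Lgr6 was above it. The layer contrasts of Rspo2, Lgr4 and Lgr5 therefore each rest on 1 probe set, as does that of Rnf43, which has only 1.

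**Figure D4:**
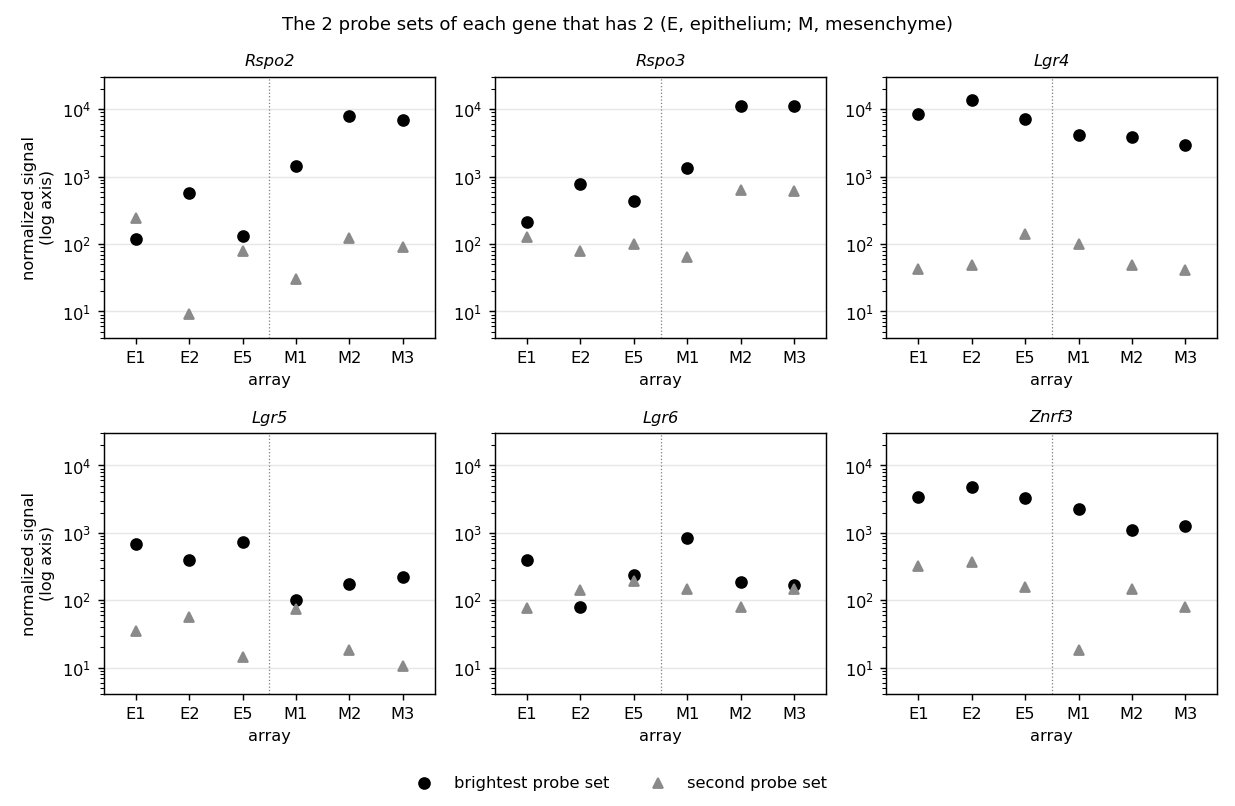
Normalized signal (log axis) of the brightest (black circles) and the second probe set (grey triangles) of the 6 genes that have 2, on the epithelial (E) and mesenchymal (M) arrays. The second probe set of Rspo3 is again higher on mesenchyme 2 and 3 (643 and 614) and low on mesenchyme 1 (65.3), while those of Rspo2, Lgr4, Lgr5 and Lgr6 overlap between the layers.

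The profiles of the members over the 6 arrays were compared by the root mean square distance between log2 values, each gene centred on its own mean. Among the 7 members that passed the filter, Lgr4 and Znrf3 were the closest pair (0.291), followed by Rspo2 and Rspo3 (0.499) and Lgr4 and Lgr5 (0.717), and Rspo2 and Rnf43 the farthest (4.15). Outside the family, the profile nearest to that of Rspo2 was of Slc26a7, an anion transporter (0.296), then Nefl, a neurofilament gene (0.384), and those nearest to Rspo3 were of Asb4 (0.356) and Egflam (0.385). Usp31 (0.108) and Nhlrc1 (0.114) were nearest to Lgr4, and Slc2a1, a glucose transporter (0.125), and Cldn9, a claudin (0.167), to Lgr5. Zfp982 (0.204) and Cpa6 (0.299) were nearest to Rnf43, Arhgap24 (0.165) and Neu3 (0.175) to Znrf3, and 3110021A11Rik (0.234) and Serpinb6b (0.241) to Lgr6. These distances describe 6 arrays in 2 layers, of which mesenchyme 1 is one.

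The other genes of the pathway were read from lists. Of the 12 Frizzled and Lrp receptors, the proteins that the ligases remove and their partners, 9 were tested, and 1 was higher in epithelium and 0 in mesenchyme in limma with or without mesenchyme 1 (2 and 3 genes at an unadjusted p under 0.05 in either direction, where 19.5% and 26.4% of all genes tested were, median difference 0.10, or -0.40 without it). That 1 was Fzd6, which read 28896, 31326 and 34775 units on epithelium 1, 2 and 5, against 6638, 5527 and 3578 on mesenchyme 1, 2 and 3 (2.63 ± 0.262, adjusted p = 0.00427), and its difference was 2.81 without mesenchyme 1 (adjusted p = 0.000856). Fzd2, a Frizzled bright in both layers, had a difference of 0.30 (adjusted p = 0.800), which turned to -0.40 without mesenchyme 1 (adjusted p = 0.291). Fzd2 read 7541 on mesenchyme 1, against 29680 and 34924 on mesenchyme 2 and 3. Fzd7 was at -0.26 (adjusted p = 0.705), and at -0.63 without mesenchyme 1 (adjusted p = 0.0697).

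Of 19 Wnt ligands 12 were tested, and 3 were higher in epithelium and 2 in mesenchyme (median 0.08), against 1.95% and 4.03% of all genes. Without mesenchyme 1 it was 4 and 3 of 15 (median -0.13), against 6.37% and 8.17%. In limma 7 of the 12 had an unadjusted p under 0.05, and 10 of the 15 without mesenchyme 1, against 19.5% and 26.4% of all genes tested. With all 6 arrays, those past the threshold as higher in epithelium were Wnt6 (3.12 ± 0.451), Wnt10a (3.04 ± 0.532) and Wnt7b (1.86 ± 0.356), the last named after its value was seen. Those higher in mesenchyme were Wnt2 (-4.17 ± 0.690) and Wnt9a (-2.57 ± 0.322). Their adjusted p lay between 0.00741 for Wnt9a and 0.0271 for Wnt7b. Without mesenchyme 1 the differences were 3.32 for Wnt6, 3.63 for Wnt10a, 2.18 for Wnt7b, -4.47 for Wnt2 and -2.74 for Wnt9a, all past the threshold. Wnt4, also named after its value was seen, had a larger epithelial difference than these with all 6 arrays (3.71 ± 0.878), but missed the threshold (adjusted p = 0.0558). It passed without mesenchyme 1 (4.67, adjusted p = 0.00438). Wnt2, a mesenchymal ligand of several organs, read 202, 19.3 and 51.3 units on epithelium 1, 2 and 5, against 1036, 1977 and 1422 on mesenchyme 1, 2 and 3. The epithelial mean of Wnt2, 90.8 units, was below the filter's limit, so the gene passed the filter through its mesenchymal level. In the unfiltered limma comparison with all arrays the adjusted p of Wnt2 was 0.0255. Without mesenchyme 2 all 5 calls ended (adjusted p 0.0531 for Wnt6 and Wnt9a, 0.0810 for Wnt2, 0.0853 for Wnt10a and 0.129 for Wnt7b). Calls also ended without epithelium 1 (Wnt6, Wnt7b, Wnt9a and Wnt10a, adjusted p 0.0506 to 0.134), epithelium 2 (Wnt7b, 0.0672), epithelium 5 (Wnt2, Wnt6, Wnt7b and Wnt10a, 0.0616 to 0.127) and mesenchyme 3 (Wnt7b, and Wnt2 and Wnt10a at 0.0588).

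Of 15 target and feedback genes of beta-catenin 13 were tested, and 0 were higher in epithelium and 1 in mesenchyme in limma (5 at an unadjusted p under 0.05 in either direction, against 19.5% of all genes tested, median -0.36). Without mesenchyme 1 the counts were 1 and 2 (median -0.65), against 6.37% and 8.17% of all genes tested. The 1 was Dkk1, a secreted inhibitor that binds Lrp receptors, which read 212, 401 and 235 units on epithelium 1, 2 and 5, against 856, 1328 and 1144 on mesenchyme 1, 2 and 3 (-1.94 ± 0.388, adjusted p = 0.0317), and its difference was -2.18 without mesenchyme 1 (adjusted p = 0.00745). Ccnd1, a cyclin of the G1 phase, had a difference of -1.01 (adjusted p = 0.0712) and Apcdd1, a membrane inhibitor of Wnt, of -0.36 (adjusted p = 0.529, or -0.54 and 0.207 without mesenchyme 1), and Ccnd1 passed without mesenchyme 1 (-1.20, adjusted p = 0.0118). Axin2, the feedback inhibitor most used as a readout of the pathway and named after its value was seen, read 1482, 2084 and 1449 units on epithelium 1, 2 and 5, against 1413, 1909.5 and 2009.9 on mesenchyme 1, 2 and 3. Its layers overlapped (-0.09 ± 0.315, adjusted p = 0.895, or -0.25 and 0.639 without mesenchyme 1). The call of Dkk1 ended without epithelium 1 (adjusted p = 0.159), epithelium 5 (0.130), mesenchyme 2 (0.152) or mesenchyme 3 (0.115), and in the unfiltered comparison (0.0534).

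Relatives of the members by sequence family did not pass in limma with 6 arrays. Of 10 ligases with the same protease-associated and RING domain arrangement as Rnf43 and Znrf3, 7 were tested and 0 passed, with a median of -0.04, and again 0 in the fit lacking mesenchyme 1. The brightest, Rnf128 and Rnf130, had differences of 0.20 (adjusted p = 0.807) and -0.19 (adjusted p = 0.674), and of 0.54 (0.339) and -0.33 (0.335) without mesenchyme 1. Of these 7, 0 had an unadjusted p under 0.05 with 6 arrays and 1 did without mesenchyme 1, against 19.5% and 26.4% of all genes tested. Of the 5 hormone receptors related to the Lgr genes 3 were tested and 0 passed (0 at an unadjusted p under 0.05), while Tshr, the thyrotropin receptor, was at -0.86 (adjusted p = 0.320), or -1.24 without mesenchyme 1 (adjusted p = 0.0356), and Rxfp1, a relaxin receptor, at -0.78 (adjusted p = 0.461), or -1.16 without it (0.146). Of 11 Dishevelled proteins and receptor partners 10 were tested and 0 passed (1 at an unadjusted p under 0.05). Without mesenchyme 1, 2 were higher in epithelium and 1 in mesenchyme, against 6.37% and 8.17% of all genes tested. Bmpr1a was at -0.17 (adjusted p = 0.782, or -0.35 and 0.498 without mesenchyme 1). Iqgap1 was at 0.60 (adjusted p = 0.392), or 0.99 without mesenchyme 1 (adjusted p = 0.0136).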

How the data were processed

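The deposited table gives 1 signal intensity for each probe set and array, on a linear scale. Per the submitters' processing notes the signals were made with GCOS, Affymetrix's own software. Its version is not given in the sources used here. The deposited intensity values have a common scaling, since the mean of every array, leaving out the highest and lowest 2% of its probe sets, was 1500. Array medians were 126 to 254. Precision is limited by the number of arrays.

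Of 45101 probe sets, 64 controls were left out. By the platform annotation 34945 name 1 gene, 932 several and 9160 are unnamed here, and 34741 were matched by gene identifier to RefSeq (GRCm38.p6), which changed 0 symbols. Values were taken as log2(signal + 16), quantile normalized, filtered at the 40th percentile of mean log2 values, and reduced to the brightest probe set per gene (13717 genes). The layers were set against each other in limma 3.58.1 (R 4.3.3, eBayes with an intensity trend, no covariate), and p-values were adjusted by Benjamini-Hochberg over every gene in the fit. Genes outside the filter come from the same fit without a filter, and second probe sets from a fit of all single-gene probe sets.

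The members, lists, tests and the look without mesenchyme 1 were chosen with earlier results of these data known. Named genes are all members, up to 4 genes past the threshold per pathway list by size of difference or the 2 brightest where fewer than 2 passed, and the 2 profiles nearest to each tested member. Tested on simulated data of 13717 genes, the fit called 2% of those given a log2 change of 1, 32% for a change of 2, 68% for 3 and 92% for 4. In the setting without mesenchyme 1 (13587 genes) it called 28%, 82%, 96% and 92%. That rate fell between changes of 3 and 4, so these percentages are rough guides only. Unchanged genes called numbered 6 with all 6 arrays and 8 without mesenchyme 1. Alternatives were other offsets, normalizations, filters, probe set choices and variance models, array weights, a replicate block, and fits that each lack 1 array.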

Additional observations from a re-analysis of the deposited data

How the results depend on the processing

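Rspo1, Rspo2, Rspo3, Lgr4, Lgr5, Rnf43 and Znrf3 kept their direction under every alternative that gave a value. Rspo4 did so except with the replicate block, where it was at 0.00, and Lgr6 lay between -1.05 and 0.97 and passed under none. Rnf43 was past the threshold under 15 of 16 alternatives, Rspo2 under 12 of 17, Lgr4 under 7 of 17, Rspo3 and Znrf3 under 3 of 17 each and Lgr5 under 2 of 16. Lgr4 missed it when all probe sets past the filter were tested (adjusted p = 0.0549), without a variance trend (0.0723) and with median centring (0.138). Znrf3 passed when its probe sets were averaged (1.60, adjusted p = 0.0410).

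Of the members, 1 was higher in epithelium with all probe sets past the filter, without a variance trend, with median centring, with no filter and with the filter at the 60th percentile, which Rnf43, Lgr5 and Lgr6 did not pass. Of all genes tested, 1.22% to 2.44% were higher in epithelium under these 5 settings. Without further normalization 2 members were higher in mesenchyme, against 5.11% of all genes. Array quality weights, whose estimate stopped early and ran from 0.0501 for mesenchyme 2 to 26.7 for epithelium 1, brought 5109 genes past the threshold (2598 higher in epithelium and 2511 in mesenchyme), with 4 and 2 members and 10 and 18 pathway genes, against 18.9% and 18.3% of all genes. Arrays 1 and 2 of the layers share replicate numbers. Their deviations from the layer means had correlations of -0.0453 and -0.0209, within the range of arrays with unlike numbers (-0.0842 to 0.0634). With 3 arrays per layer and mesenchyme 1 standing apart, these values can neither show nor exclude pairing. The numbers were not taken as pairs. With the replicate number as a block, 0 genes, 0 members and 0 pathway genes passed in limma in either direction, with 1460 genes (10.6%), 2 members higher in epithelium and 2 in mesenchyme at an unadjusted p under 0.05. Rnf43 was then at 4.11 (adjusted p = 0.112), Rspo2 at -3.60 (0.113) and Lgr4 at 1.44 (0.384). Epithelium 5 and mesenchyme 3 share no number, so the block fit takes the layer difference from arrays 1 and 2 alone, mesenchyme 1 included. It leaves little from which to estimate the spread, so its lack of calls cannot decide how firm the calls of the main fit are.

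Leaving out each array in turn gave 142 genes (without epithelium 1) to 1975 (without mesenchyme 1), 27 to 865 higher in epithelium and 115 to 1110 in mesenchyme. It was 241 without epithelium 5, 192 without mesenchyme 2 and 330 without mesenchyme 3. Members numbered 1 to 4 in epithelium and 0 to 2 in mesenchyme, against 0.196% to 6.37% and 0.836% to 8.17% of all genes, and pathway genes 1 to 8 and 0 to 7. At an unadjusted p under 0.05 it was 4 and 2 of the 7 members each time, against 13.6% to 26.4% of all genes in either direction.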

Other observations

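Several pathway genes missed the threshold with 6 arrays and passed without mesenchyme 1 in limma, and 3 are given here, chosen after their values were seen. Sdc4, a heparan sulfate proteoglycan of the cell surface, read 17751, 14020.1 and 16620.4 normalized signal units on epithelium 1, 2 and 5, against 12039, 3102 and 2296 on mesenchyme 1, 2 and 3. Mesenchyme 1 lay nearer to the epithelial arrays than to the rest of its layer. The difference of Sdc4 was 1.86 ± 0.581 (adjusted p = 0.128), and 2.59 without mesenchyme 1 (adjusted p = 0.00105).

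Ror1, a receptor tyrosine kinase that binds Wnt5a, read 2357, 3716 and 2809 units on epithelium 1, 2 and 5, against 2121, 15069.5 and 14333 on mesenchyme 1, 2 and 3. Mesenchyme 1 was the lowest of the 6 arrays. The difference of Ror1 was -1.40 (adjusted p = 0.353), and -2.34 without mesenchyme 1 (adjusted p = 0.00183).

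Notum, a secreted enzyme that inactivates Wnt proteins, read 362, 313 and 221 units on epithelium 1, 2 and 5, against 123, 92.7 and 15.8 on mesenchyme 1, 2 and 3. Its layers did not overlap, at a difference of 1.98 (adjusted p = 0.147), or 2.38 without mesenchyme 1 (adjusted p = 0.0424). The mesenchymal mean of Notum, 77.1 units, was below the filter's limit, so the gene passed the filter through its epithelial level. In the unfiltered limma comparison with all arrays the adjusted p of Notum was 0.177. The unfiltered value without mesenchyme 1 is not given here.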
